A study of Mus musculus with 9 samples.

Results

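AMP-activated protein kinase (AMPK) is built from 1 catalytic alpha subunit, 1 scaffolding beta subunit and 1 nucleotide-binding gamma subunit. The 10 genes described here were taken by name. They are the alpha genes Prkaa1 and Prkaa2, the beta genes Prkab1 and Prkab2, the gamma genes Prkag1, Prkag2 and Prkag3, the upstream kinases Stk11 and Camkk2, and the deacetylase Sirt1. All 10 were found among the 56805 genes of the deposited table, and all 10 passed the filter on low values.

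The muscle was the left tibialis anterior (TA), which lifts the foot and in mice is made mostly of fast fibres, taken from males at the age of 13 months. Each of the 3 genotypes, wild type (WT), Svil-KO and Svil-Mut, had 3 mice and 1 library per mouse, and all 9 libraries carry the batch label 1. The labels name no allele, promoter or strain background behind Svil-KO or Svil-Mut and no treatment. Svil, which encodes the actin-binding protein supervillin, stood at normalized counts of 8407 to 9373 in WT, 6656 to 7402 in Svil-KO and 3939 to 4615 in the Svil-Mut libraries. All 3 libraries labelled Svil-KO lay below all WT libraries (log2 fold change -0.35, limma unadjusted p = 0.00207, adjusted p = 0.997), and those labelled Svil-Mut lay lower still (-1.01, adjusted p = 0.000941). A count for the gene as a whole cannot tell which part of it an allele changes.

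The reads counted on genes, as recovered from the deposited values, summed to 36234428 to 48762188 per library, and 19282 to 19988 genes had at least 1 read. Fast fibre markers were abundant in all 9 libraries, with the type IIb myosin Myh4 at 1777800 to 2610190 normalized counts. A normalized count here is a read count divided by a size factor for its library, so it can be compared between libraries but not between genes of different length. In a principal component analysis of all genes tested, the first component split Svil-Mut from WT and Svil-KO, and 2 libraries stood apart from the rest. First-component scores were 26.3, 79.6 and 16.8 for Svil-Mut replicates 1, 2 and 4. Scores of WT and Svil-KO were all negative there, from -32.1 to -12.1. Replicate 2 of Svil-Mut thus stood farthest out on the first component. Svil-Mut replicate 4 was at -79.5 on the second, where the other 8 lay between -12.1 and 25.2. The extracts are bulk muscle, in which fewer cells of a type and less RNA per cell cannot be told apart.

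As background, AMPK senses cellular energy. AMP and ADP bind the gamma subunit when ATP is being spent, and this favours phosphorylation of a threonine in the activation loop of the alpha subunit. The main kinase for that site is LKB1, the product of Stk11, and CaMKK2 can act on it when calcium rises. The beta subunit holds a module that binds glycogen. In skeletal muscle, active AMPK promotes glucose uptake and fatty acid oxidation and restrains lipid and protein synthesis, and the gamma subunit encoded by Prkag3 is known mainly from fast glycolytic fibres. SIRT1 is an NAD-dependent deacetylase whose activity is linked with that of AMPK in both directions. Phosphorylation and enzyme activity were not measured here.

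The subunit classes consist of related genes, so their coding sequences (GENCODE M21, GRCm38) were compared to see how long a stretch the members of a class share letter for letter. Prkaa1 and Prkaa2 were 73.9% identical over 1610 aligned bases, and Prkab1 and Prkab2 78.2% over 781. The longest stretch without a difference was 35 bases for the alpha pair and 23 for the beta pair. For the gamma genes it was 17 bases or fewer. The longest of each class are shown, in lower case because every base is shared:
Prkaa1 and Prkaa2: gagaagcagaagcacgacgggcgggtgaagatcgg
Prkab1 and Prkab2: ggagagcatcagtacaagttctt
Prkag2 and Prkag3: gaagaacataagattga
Within the coding sequences compared, those of 1 transcript per gene, a read reaching beyond these stretches differs in at least 1 base between the members of a pair. The untranslated parts of the transcripts were not compared. Exons of 5 of the 10 members overlap annotated genes on the other strand that have under 7 normalized counts on average. These are Cbarp for Stk11, at 6.6, and genes at 0.0 to 1.0 for Prkag1, Prkag2, Prkab2 and Sirt1. The longest overlaps were 950 of the 2175 exon bases of Prkag1 and 795 of the 6480 of Prkag2. The library kit does not mark strand, so reads on shared bases cannot be assigned by strand. Whether this moved the counts of Prkag1 and Prkag2, and with them the gamma shares below, was not tested.

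Divided by the length of all annotated exons, the 10 genes covered nearly 3 orders of magnitude in TA muscle. Over the 9 libraries the mean was 4614 normalized counts per kb for Prkab2, 2032 for Prkag3 and 1629 for Prkaa2. Stk11 followed at 560 per kb and Prkag1 at 266. Prkab1 (171 per kb), Prkaa1 (158), Prkag2 (81.1), Sirt1 (65.1) and Camkk2 (7.41) came last. The libraries of neighbours in this order overlapped between Prkag3 and Prkaa2, between Prkag1 and Prkab1, between Prkab1 and Prkaa1, and between Prkag2 and Sirt1, and they did not overlap at the other steps.

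**Figure D1:**
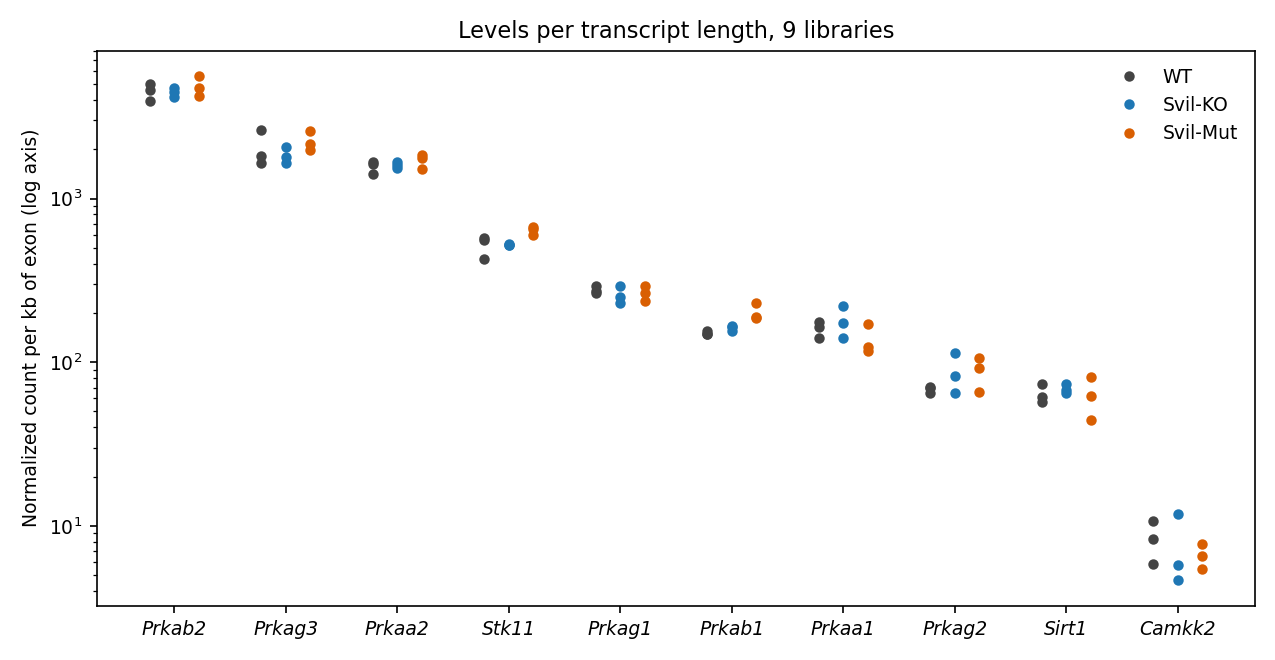
Level of each gene per kilobase of annotated exon (log axis), with 1 point per library coloured by genotype. Prkab2, Prkag3 and Prkaa2 lie highest, at means of 4614, 2032 and 1629 normalized counts per kb, and Camkk2 lowest at 7.41.

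The alpha, beta and gamma mRNA pools were each dominated by 1 gene. Per kb, Prkaa2 made up 91.1% ± 2.1 of the alpha mRNA, Prkab2 96.4% ± 0.44 of the beta mRNA and Prkag3 85.1% ± 2.5 of the gamma mRNA (SD, n = 9). Prkag1 held 11.4% ± 2.2 of the gamma pool and Prkag2 3.45% ± 0.79 (SD, n = 9). In each genotype the same gene led. The share of Prkag3 was 85.0% ± 3.4 in WT (SD, n = 3), 84.1% ± 2.3 in Svil-KO (SD, n = 3) and 86.2% ± 2.2 in the Svil-Mut libraries (SD, n = 3). Prkab1, the minor beta gene, held 3.26% ± 0.44 of the beta mRNA in WT (SD, n = 3), 3.49% ± 0.27 in Svil-KO (SD, n = 3) and 3.999% ± 0.25 in the Svil-Mut libraries (SD, n = 3). With the length of the principal transcript, an alternative chosen after seeing the data, the leading shares were 91.1%, 94.9% and 83.6%, and the order of the 10 genes was the same. The largest moves were those of Camkk2 to 29.4 per kb, Prkag2 to 158 and Stk11 to 999. With that length Prkag3 no longer overlapped Prkaa2 and Prkag2 no longer overlapped Sirt1, while Prkaa1 and Prkag2 came to overlap.

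In the sentences that list 9 levels, the values of a genotype are normalized counts in the order of replicate number (1, 3 and 4 for WT and Svil-KO, and 1, 2 and 4 for Svil-Mut). Gene positions are those of GENCODE M21 on GRCm38, the build called mm10. Prkaa2 (chr4:105029874-105109890, minus strand), the catalytic subunit typical of muscle, was at 13379, 12967 and 11284 in WT, 12831, 13264 and 12244 in Svil-KO and 12060, 14015 and 14795 in the Svil-Mut libraries. It was the steadiest of the 10 genes, with a coefficient of variation of 8.12% over the 9 libraries, and the genotypes overlapped. Its log2 fold change was 0.03 ± 0.09 in Svil-KO and 0.12 ± 0.09 in Svil-Mut against WT (SE, limma adjusted p = 0.997 and 0.729).

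Prkaa1 (chr15:5143861-5181899, plus strand), the catalytic subunit found in most tissues, was at 653, 759 and 819 in WT, 807, 652 and 1022 in Svil-KO and 794, 543 and 576 in the Svil-Mut libraries. Replicates 2 and 4 of Svil-Mut were the lowest of all libraries and Svil-KO replicate 4 the highest, but Svil-Mut replicate 1 lay within the WT range. The log2 fold change was 0.14 ± 0.19 in Svil-KO and -0.24 ± 0.19 in Svil-Mut against WT (SE, limma adjusted p = 0.997 and 0.739). Between Svil-KO and Svil-Mut it was 0.37 ± 0.19 (SE, adjusted p = 0.551). The same 4 libraries held the 4 highest Prkaa1 and the 4 lowest Prkaa2 levels: WT replicate 4, Svil-KO replicates 1 and 4, and Svil-Mut replicate 1.

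Prkab1 (chr5:116013586-116024508, minus strand), the beta subunit with the lower level in this muscle, was at 458, 454 and 473 in WT, 472, 506 and 502 in Svil-KO and 568, 707 and 578 in the Svil-Mut libraries. All 3 Svil-Mut libraries lay above all WT and Svil-KO libraries, while WT and Svil-KO overlapped by less than 1 count. The mean was 618 ± 78 in Svil-Mut against 462 ± 9.7 in WT (SD, n = 3), which is 134% of WT. The log2 fold change was 0.41 ± 0.13 (SE, 95% interval 0.13 to 0.70, limma unadjusted p = 0.00901), the smallest p of the 10 genes, but with adjustment over the 15279 genes it did not pass (adjusted p = 0.349). Without Svil-Mut replicate 2, which stood apart over all genes and had the highest Prkab1 level, it was 0.31, and without Svil-Mut replicate 4 it was 0.46. Svil-KO against WT gave 0.09 ± 0.13 (SE, adjusted p = 0.997), and Svil-KO against Svil-Mut gave -0.32 ± 0.13 (SE, unadjusted p = 0.0328, adjusted p = 0.456).

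Prkab2 (chr3:97658193-97673812, plus strand), the dominant beta subunit, was at 23318, 25586 and 20235 in WT, 22864, 24279 and 21140 in Svil-KO and 24056, 28591 and 21541 in the Svil-Mut libraries. The genotypes overlapped throughout. Its log2 fold change was -0.01 ± 0.11 in Svil-KO and 0.10 ± 0.11 in Svil-Mut against WT (SE, limma adjusted p = 0.9988 and 0.835).

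Prkag3 (chr1:74738922-74749221, minus strand), the gamma subunit of fast glycolytic fibres, was at 6732, 9660 and 6041 in WT, 6574, 7580 and 6042 in Svil-KO and 7300, 9503 and 7892 in the Svil-Mut libraries. WT replicate 3 was the highest library, followed by Svil-Mut replicate 2, and these were also the highest libraries for Prkab2, in the opposite order. WT alone spanned the whole range of the 9 libraries. Log2 fold changes were -0.13 ± 0.17 in Svil-KO and 0.16 ± 0.17 in Svil-Mut against WT (SE, limma adjusted p = 0.997 and 0.81), and -0.29 ± 0.17 between Svil-KO and Svil-Mut (SE, adjusted p = 0.597).

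Prkag1 (chr15:98812797-98831521, minus strand), the widely expressed gamma subunit, was at 594, 574 and 639 in WT, 497, 545 and 632 in Svil-KO and 572, 517 and 633 in the Svil-Mut libraries. The genotypes overlapped, with log2 fold changes of -0.12 ± 0.14 in Svil-KO and -0.07 ± 0.14 in Svil-Mut against WT (SE, limma adjusted p = 0.997 and 0.913). Prkag2 (chr5:24862744-25100642, minus strand), the gamma subunit whose human form is known from an inherited heart muscle disease with glycogen storage, was at 450, 457 and 423 in WT, 423, 733 and 530 in Svil-KO and 686, 600 and 426 in the Svil-Mut libraries. The WT libraries lay close together, and each of the other genotypes had 1 library near the WT level and 2 above it. Against WT the log2 fold change was 0.31 ± 0.22 in Svil-KO and 0.34 ± 0.22 in Svil-Mut (SE, limma adjusted p = 0.997 and 0.658). Both comparisons share the WT libraries. Leaving out Svil-KO replicate 3 gave 0.096 for Svil-KO, and leaving out its replicate 1 gave 0.49. For Svil-Mut the value was 0.19 when its replicate 1 was left out and 0.53 when replicate 4 was.

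**Figure D2:**
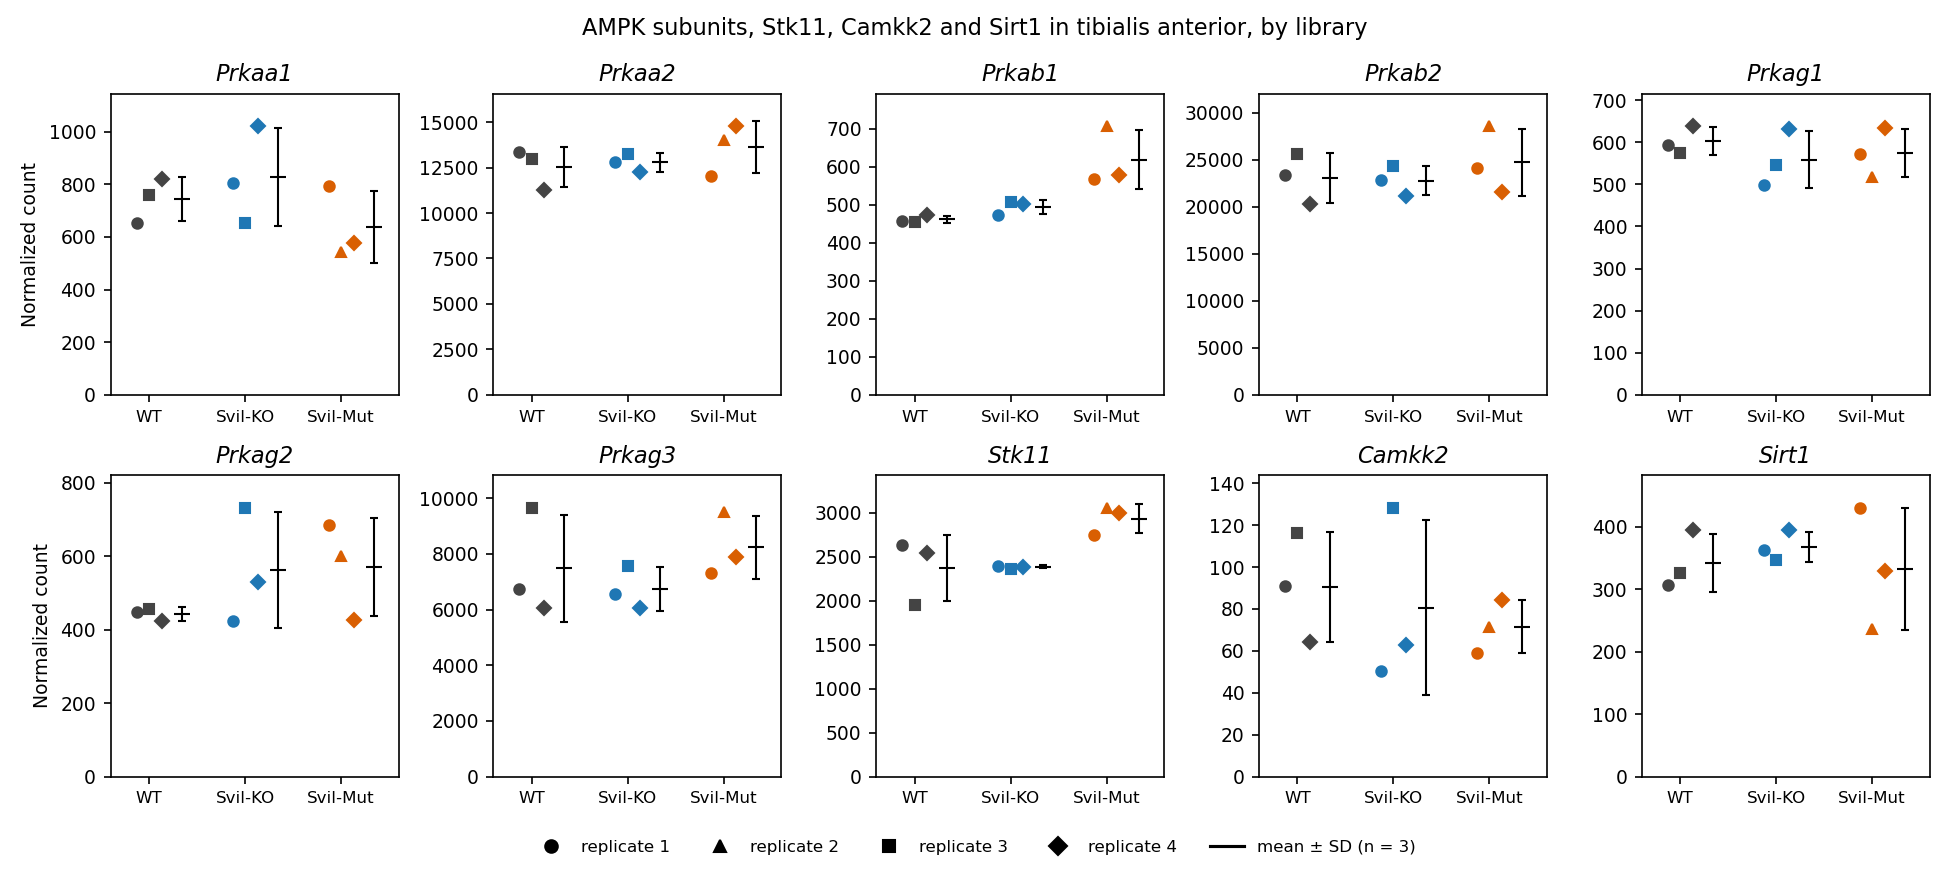
Normalized count of each of the 10 genes by library (vertical axes from 0), with the marker shape giving the replicate number and black bars the mean ± SD of 3 libraries. Prkab1 and Stk11 lie higher in all Svil-Mut libraries than in the other 6, and the genotypes overlap for the other 8 genes.

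Stk11 (chr10:80115803-80130682, plus strand), the gene of the upstream kinase LKB1, was at 2635, 1946 and 2539 in WT, 2399, 2365 and 2388 in Svil-KO and 2742, 3059 and 3001 in the Svil-Mut libraries. All Svil-Mut libraries were above all others, and WT replicate 3 was the lowest. The mean was 2934 ± 169 in Svil-Mut against 2373 ± 373 in WT (SD, n = 3), which is 124% of WT. The log2 fold change was 0.32 ± 0.11 (SE, 95% interval 0.07 to 0.57, limma unadjusted p = 0.0182) and did not pass after adjustment (adjusted p = 0.401). It was 0.18 without WT replicate 3, the library that set the width of the WT range, 0.29 without Svil-Mut replicate 2 and 0.30 when Svil-Mut replicate 4 was left out. Svil-KO against WT gave 0.02 ± 0.11 (SE, adjusted p = 0.997), and Svil-KO against Svil-Mut -0.30 ± 0.11 (SE, unadjusted p = 0.0245, adjusted p = 0.423).

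Camkk2 (chr5:122731170-122779409, minus strand), the calcium-dependent upstream kinase, was at 90.8, 116 and 64.2 in WT, 50.6, 128 and 63.0 in Svil-KO and 59.1, 71.6 and 84.2 in the Svil-Mut libraries. These values rest on 46 to 126 reads per library, the fewest of the 10 genes, and the spread between libraries was the widest, with a coefficient of variation of 33.0%. Its log2 fold change was -0.24 ± 0.39 in Svil-KO and -0.31 ± 0.39 in Svil-Mut against WT (SE, limma adjusted p = 0.997 and 0.851). In Svil-Mut the 95% interval ran from -1.16 to 0.55.

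Sirt1 (chr10:63319005-63381704, minus strand) was at 306, 326 and 394 in WT, 362, 346 and 394 in Svil-KO and 431, 236 and 329 in the Svil-Mut libraries. Svil-Mut replicates 1 and 2 held the highest and the lowest level of all libraries. The log2 fold change was 0.11 ± 0.21 in Svil-KO and -0.08 ± 0.21 in Svil-Mut against WT (SE, limma adjusted p = 0.997 and 0.946).

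Counted together, none of the 10 genes passed in any of the 3 comparisons at an adjusted p under 0.05, by limma, edgeR or DESeq2. Among all 15279 genes tested by limma, 0% passed in Svil-KO against WT, 0.0393% in Svil-Mut against WT and 0.0458% in Svil-KO against Svil-Mut. At an unadjusted p under 0.05 the counts were 0, 2 and 2 of the 10 genes in the same order, beside 4.11%, 10% and 10.2% of all genes tested. Libraries of different genotype did not overlap for 0, 2 and 2 of the 10 genes, beside 10.7%, 13.9% and 15.2% of all genes, and the 2 genes were Prkab1 and Stk11 both times. With 10 genes, 2 is close to those backgrounds. The median log2 fold change of the 10 genes was 0.02, 0.11 and -0.07 in that order, beside 0.0031, -0.0046 and 0.0089 over all genes tested.

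**Figure D3:**
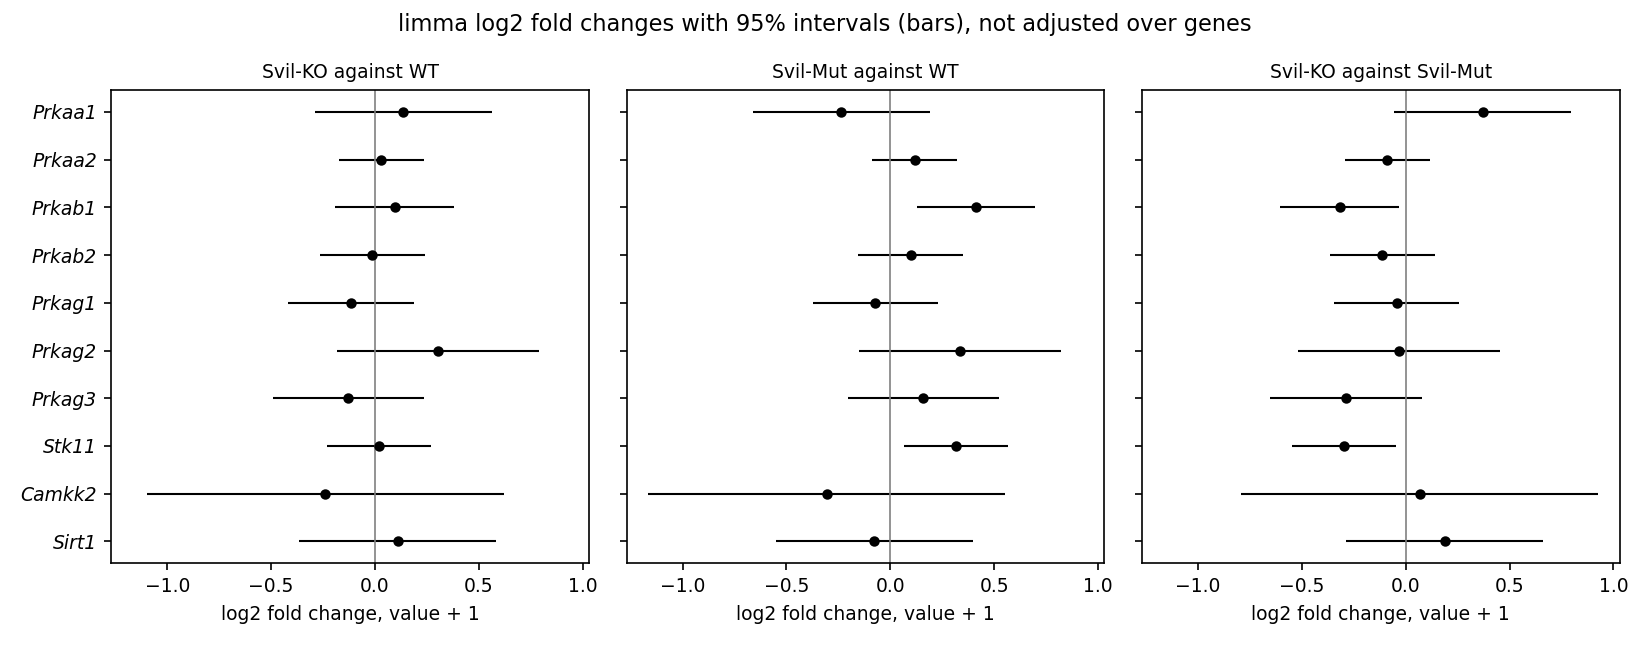
Log2 fold change of each of the 10 genes in the 3 comparisons (points) with 95% intervals of the limma fit (bars). Intervals that leave out 0 are those of Prkab1 and Stk11 in both comparisons with Svil-Mut, and neither gene passed after adjustment.

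A ratio of 2 subunit genes within a library hardly moves with the scaling of that library, so 3 ratios were compared between genotypes. The log2 ratio of Prkab2 over Prkab1 was 5.67, 5.81 and 5.42 in WT, 5.59, 5.58 and 5.39 in Svil-KO and 5.40, 5.33 and 5.22 in the Svil-Mut libraries. All Svil-Mut values lay below all WT values, with a difference in means of -0.31. The exact two-sided permutation p was 0.1, the smallest that 3 against 3 libraries allow, and 0.675 adjusted over the 9 ratio comparisons. For Prkaa2 over Prkaa1 the means were 4.08 ± 0.29 in WT, 3.97 ± 0.38 in Svil-KO and 4.43 ± 0.44 in the Svil-Mut libraries (SD, n = 3; exact permutation p = 0.7 and 0.3 against WT). For Prkag3 over Prkag1 they were 3.60 ± 0.43, 3.59 ± 0.29 and 3.84 ± 0.31 (SD, n = 3; exact permutation p = 1 and 0.5 against WT).

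**Figure D4:**
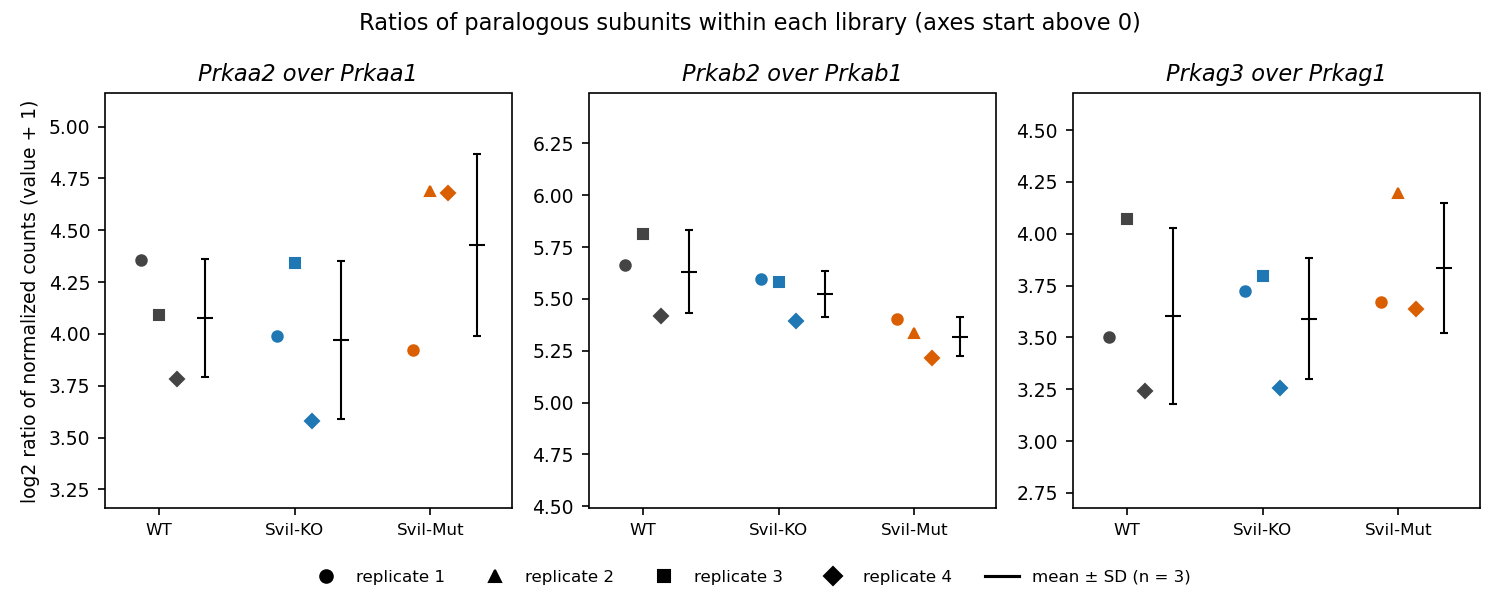
Log2 ratio of the muscle-dominant over the other subunit gene in each library (vertical axes do not start at 0), with marker shape for the replicate number and black bars for the mean ± SD of 3 libraries. Prkab2 over Prkab1 is lower in the 3 Svil-Mut libraries (5.22 to 5.40) than in the 3 WT libraries (5.42 to 5.81).

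Prkab1 and Stk11 were the 2 genes whose Svil-Mut libraries lay apart, a count close to the background over all genes. The sequences before their start sites are shown (RefSeq, GRCm38.p6, 5′ to 3′ on the strand of the gene, with CCAAT in either orientation in capitals). For Prkab1 the stretch is chr5:116024509-116024678 on the minus strand, 170 bases that end before the GENCODE start of the gene. For Stk11 it is chr10:80115545-80115794 on the plus strand, 250 bases:
Prkab1: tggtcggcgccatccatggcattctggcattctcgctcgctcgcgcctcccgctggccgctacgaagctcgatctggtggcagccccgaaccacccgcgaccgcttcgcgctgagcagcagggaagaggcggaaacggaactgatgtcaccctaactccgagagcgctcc
Stk11: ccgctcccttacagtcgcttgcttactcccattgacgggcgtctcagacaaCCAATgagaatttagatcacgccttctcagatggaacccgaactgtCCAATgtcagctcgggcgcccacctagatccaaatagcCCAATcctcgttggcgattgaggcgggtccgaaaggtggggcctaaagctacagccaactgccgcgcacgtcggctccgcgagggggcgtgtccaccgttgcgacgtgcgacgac
Both 250-base windows were rich in G and C (65.6% and 59.6%, beside a median of 52.4% over 32851 RefSeq promoters). The Stk11 window held CCAAT 3 times and that of Prkab1 did not hold it, and 33.8% of all windows had at least 1 match on either strand. Neither window held an exact match to the cyclic AMP response element TGACGTCA or the AP-1 motif TGANTCA on either strand. Exact matches were in 1.55% and 6.75% of all windows. Partial sites and near matches were not searched. The sequences CACGTG and GGGCGG were also searched on either strand and found in neither window, beside 6.02% and 32.7% of all windows.

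The genes with the most similar pattern over the 9 libraries were found by Pearson's r of log2 values, among 10926 genes with a mean of at least 50 normalized counts. For Prkaa2 they were Ifi204 (r = 0.92), Cmtm7 (0.92) and Atp8b1 (0.91). For Prkag3 they were Rdm1 (0.95), Xpo5 (0.93) and Slc35d1 (0.92). These are descriptions of 9 shared libraries, picked as the highest of many. No other AMPK subunit was among them, which does not mean that the subunits varied apart. Among the subunits, Prkag3 had its highest r with Prkab2 (0.83) and Prkaa2 with Prkag3 (0.59), while Prkaa2 and Prkaa1 had r = -0.80.

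The wider pathway was read from 6 lists of 119 distinct genes, of which 117 were tested and none passed in any comparison by limma. The lists were read by limma only, here and below. Over all genes, DESeq2 passed more genes than limma in each comparison. At an unadjusted p under 0.05 there were 10 genes in Svil-KO against WT (9 higher and 1 lower, 8.55%), 16 in Svil-Mut against WT (5 higher and 11 lower, 13.7%) and 21 in Svil-KO against Svil-Mut (16 higher and 5 lower, 17.9%). The matching shares of all genes tested were 4.11%, 10% and 10.2%. Libraries did not overlap for 15, 18 and 24 of the 117 genes (12.8%, 15.4% and 20.5%), beside 10.7%, 13.9% and 15.2% of all genes tested, so the first and second shares are near the background.

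Among 22 partners of LKB1 and other regulators of AMPK, 0 passed. Cab39, the gene of MO25 alpha, the scaffold of the LKB1 complex, was at 7582, 7406 and 7272 in WT, 8574, 8786 and 8838 in Svil-KO and 7971, 8253 and 7517 in the Svil-Mut libraries. Svil-KO was above WT in every library, with a log2 fold change of 0.24 ± 0.07 (SE, limma unadjusted p = 0.00423, adjusted p = 0.997). Camkk1, the paralogue of Camkk2, had 1, 0 and 0 reads in WT, 39, 7 and 48 in Svil-KO and 10, 25 and 48 in the Svil-Mut libraries. Its adjusted p was 0.997 in Svil-KO and 0.205 in Svil-Mut by limma, and no fold is given because WT held 1 read in all. Flcn, the gene of folliculin, a negative regulator of AMPK, was at 3473 ± 716 in Svil-Mut against 2591 ± 542 in WT (SD, n = 3; limma adjusted p = 0.432).

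Of 12 AMPK-related kinases that LKB1 also activates, 10 were tested and 0 passed. Sik1, a salt-inducible kinase, was at 199, 272 and 231 in WT, 695.5, 205 and 181 in Svil-KO and 1177, 2124 and 876 in the Svil-Mut libraries. The 3 Svil-Mut libraries were above all others, and Svil-KO replicate 1 stood apart from the other Svil-KO libraries. The log2 fold change in Svil-Mut against WT was 2.48 ± 0.46 (SE, limma adjusted p = 0.141). Nuak2 was at 130 ± 42 in Svil-Mut against 32.2 ± 26 in WT (SD, n = 3; limma adjusted p = 0.552). In Svil-KO against WT the leading kinases were Snrk (log2 fold change 0.23) and Mark1 (0.58), each with an adjusted p = 0.997.

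The immediate early genes are a list of 20 that respond within minutes to stimulation. Summed, they stood at 21970 to 23487 normalized counts in WT, 22200 to 35384 in Svil-KO and 55016 to 78692 in the Svil-Mut libraries, and 3 of the 20 passed in Svil-Mut against WT, all higher. Red blood cell markers summed to 9117 to 13153 in WT, 7028 to 10980 in Svil-KO and 10671 to 53571 in the Svil-Mut libraries, and none of 7 tested passed. The part of either list in the Sik1, Prkab1 or Stk11 values was not tested. For the 10 slow fibre markers, the summed level was 83768 to 123076 in WT, 79210 to 124582 in Svil-KO and 40585 to 67023 in the Svil-Mut libraries, and for the 10 fast fibre markers 5521920 to 5966630, 5608690 to 6189620 and 6443190 to 6933420. These sums follow the most abundant markers, Mb in the slow list and Myh4 and Atp2a1 in the fast list. The mean log2 level of the slow markers, relative to the WT mean, was -0.78, -2.28 and -0.17 in Svil-Mut replicates 1, 2 and 4. It was 1.64 in Svil-KO replicate 1, -0.36 in Svil-KO replicate 3 and -0.12 in WT replicate 4, so by this measure Svil-Mut replicate 4 lay among the other genotypes and Svil-KO replicate 1 stood apart. The mean log2 level of the fast markers was -0.084, -0.30 and 0.017 in the same Svil-Mut libraries, and the fast myosins Myh2 (log2 fold change -1.84, limma adjusted p = 0.325) and Myh1 (-0.73, adjusted p = 0.508) went against the sum. No marker of either fibre list passed against WT, none was at 0 in any library, and the part of fibre makeup in the AMPK values was not tested.

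The 28 AMPK substrates, which include enzymes of lipid synthesis and regulators of glucose transport, had 0 passing. Tbc1d1, a Rab GTPase-activating protein that AMPK phosphorylates to free GLUT4 vesicles, was at 7326, 5638 and 7274 in WT, 7598, 6550 and 8361 in Svil-KO and 5709, 4835 and 4472 in the Svil-Mut libraries. Svil-Mut lay below Svil-KO in every library and overlapped WT, with a log2 fold change of -0.43 ± 0.13 against WT (SE, limma unadjusted p = 0.00811, adjusted p = 0.341) and 0.58 ± 0.13 in Svil-KO against Svil-Mut (SE, adjusted p = 0.188). Srebf1, a transcription factor of lipid synthesis, was at 2048, 1863 and 1526 in WT and 3127, 2545 and 8796 in Svil-Mut (adjusted p = 0.344). Lipe, hormone-sensitive lipase, was at 591 ± 78 in Svil-KO against 300 ± 49 in Svil-Mut (SD, n = 3; limma adjusted p = 0.244). Nos1 (log2 fold change 0.29) and Tsc2 (0.26) led Svil-KO against WT with an adjusted p = 0.997 each.

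Of 20 genes of oxidative and glucose metabolism that are linked to AMPK activation, 0 passed, and the median log2 fold change was 0.08 in Svil-KO and -0.08 in Svil-Mut against WT. Pdk4, which holds back pyruvate oxidation, was at 39433, 17331 and 52686 in WT and 5976.5, 9859 and 11614 in Svil-Mut (adjusted p = 0.279). Mef2c, a muscle transcription factor, was at 28758 ± 399 in WT against 24691 ± 708 in Svil-Mut (SD, n = 3; log2 fold change -0.22, adjusted p = 0.326). Cd36, a fatty acid transporter, had a log2 fold change of 0.55 in Svil-KO against Svil-Mut (adjusted p = 0.323). Fndc5 (0.21) and Slc2a4 (0.14), the gene of GLUT4, led Svil-KO against WT with an adjusted p = 0.997 each.

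Beside Sirt1, 22 genes of the other sirtuins and NAD metabolism were tested and 0 passed. In Svil-Mut against WT the smallest p was that of Sirt4, a mitochondrial sirtuin, at 272 ± 72 against 395 ± 42 (SD, n = 3; log2 fold change -0.56, limma adjusted p = 0.426), followed by the nuclear Sirt6 (-0.50, adjusted p = 0.589). In Svil-KO against WT they were Parp1, an NAD-consuming DNA repair enzyme (0.22), and Sirt7 (-0.49), each with an adjusted p = 0.997. Between Svil-KO and Svil-Mut they were Nmnat2, with at most 20 reads in any library (adjusted p = 0.459), and the mitochondrial Sirt3 (log2 fold change 0.49, adjusted p = 0.461).

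Of 16 genes that buffer adenylates and creatine phosphate, and so the AMP signal that AMPK reads, 0 passed. Ckmt2, the mitochondrial creatine kinase of muscle, was at 81653, 84137 and 94028 in WT, 87232, 91158 and 93649 in Svil-KO and 77224, 56936 and 48229 in the Svil-Mut libraries. All Svil-Mut libraries lay below all others, with a log2 fold change of -0.54 ± 0.14 against WT (SE, limma unadjusted p = 0.00294, adjusted p = 0.283). Ckm, the cytosolic form, was at 476258 ± 29435 in Svil-Mut against 404139 ± 31204 in Svil-KO (SD, n = 3; limma adjusted p = 0.373). In Svil-Mut against WT the next smallest p was that of the adenylate kinase gene Ak4 (-1.17, adjusted p = 0.412). In Svil-KO against WT the smallest were those of Ak3 (0.20) and Ak4 (-0.52), each with an adjusted p = 0.997.

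**Figure D5:**
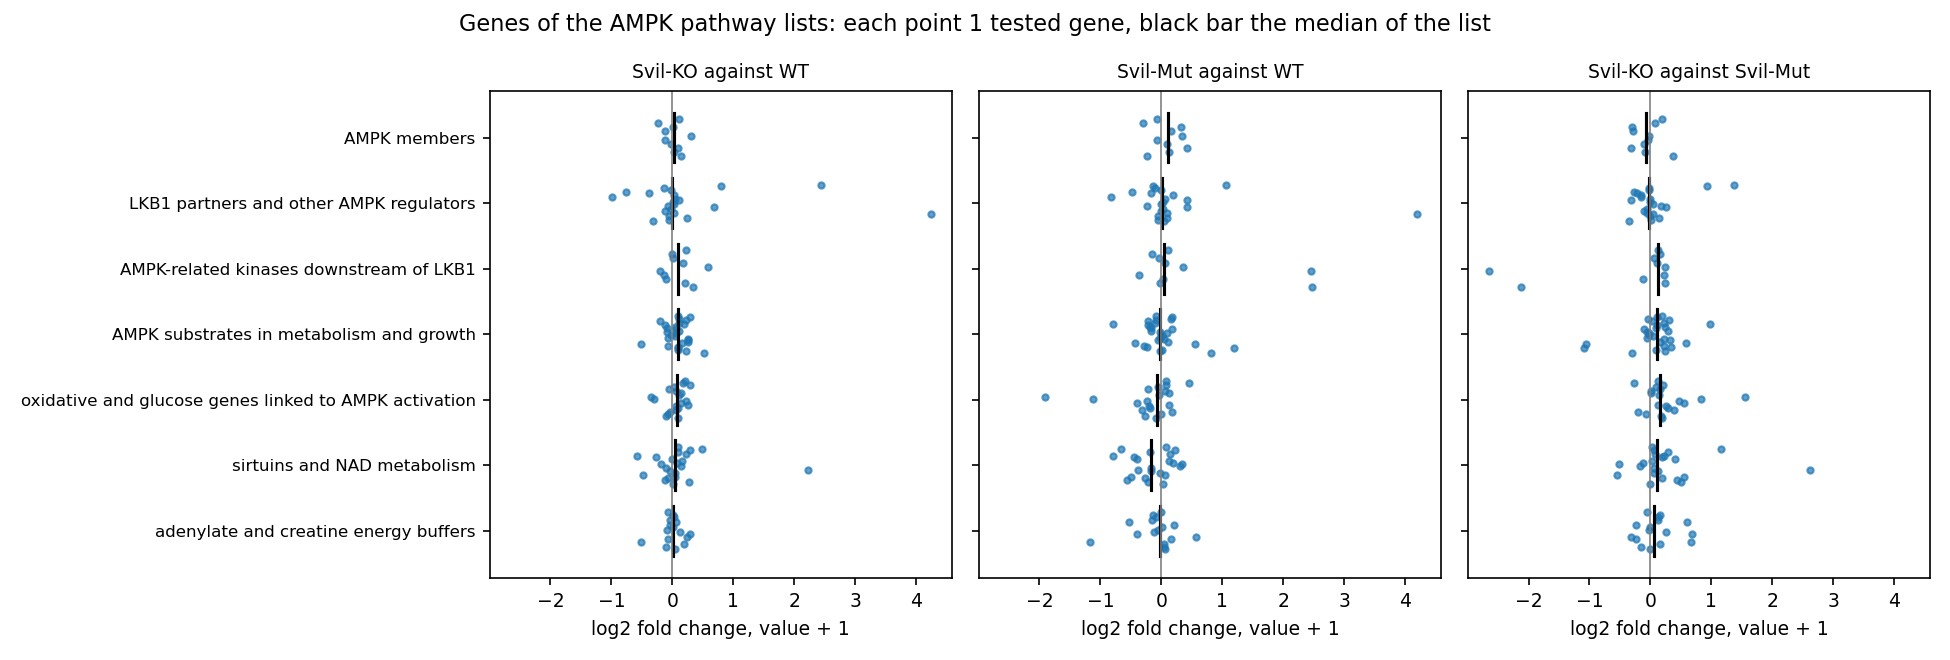
Log2 fold changes of the 10 AMPK genes and of the 6 pathway lists in the 3 comparisons, with 1 point per tested gene and a black bar at the median. The AMPK genes stay near 0, with Prkab1 at 0.41 in Svil-Mut against WT the farthest, and Sik1 (2.48) and Nuak2 (2.45) lie to the right in that comparison. The rightmost point against WT is Camkk1, fitted against 1 WT read.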

How the data were processed

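Per the labels' protocols, an oligo(dT) primer was used for reverse transcription, followed by SMARTer cDNA amplification and Nextera XT libraries, which do not keep strand. The submitters' processing notes list HISAT2, featureCounts, DESeq2 and mm10, without versions. The deposited signal is a read count scaled by 1 factor per library, and whole reads were recovered for 100% of values (tolerance 0.001).

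Log2(normalized count + 1) was fitted with limma over all 9 libraries, with genotype as the factor and a variance trend. Genes needed a value of 10 in at least 3 libraries, which left 15279, and p-values were Benjamini-Hochberg adjusted over them. Fold changes of low genes are understated on this scale. Ratios of subunit genes were compared by exact permutation. The fit was tested on simulated counts.

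The 10 genes and the lists were chosen with earlier results of these data known. Pathway genes named are up to 2 of smallest p per list and comparison, and the genes most like Prkaa2 and Prkag3 are the 3 of highest r. The promoters shown were chosen after their genes' values were seen. Adss1 was matched as Adssl1, a RefSeq synonym. Alternatives were other pseudocounts, filters and scalings, no trend, only 2 genotypes, a replicate block, edgeR (version 4.0.16) and DESeq2 (1.42.0) on the reads, and leaving out each library. Other versions were limma 3.58.1 under R 4.3.3, and Biopython 1.88 and matplotlib 3.10.9 under Python 3.11.15.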

Additional observations from a re-analysis of the deposited data

How the results depend on the processing

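None of the 10 genes passed under any of the 20 alternatives, of which 9 left out 1 library each. Against WT, Prkab1 in Svil-Mut stayed at 0.31 to 0.47 on the log2 scale (adjusted p 0.145 to 0.587) and Stk11 at 0.18 to 0.40 (adjusted p 0.261 to 0.650). Leaving out 1 library turned the sign of small differences, whose lowest and highest values were as follows. In Svil-KO against WT they were -0.030 and 0.29 for Prkaa1, -0.044 and 0.079 for Prkaa2, -0.10 and 0.065 for Prkab2, -0.27 and 0.072 for Prkag3, -0.12 and 0.10 for Stk11, and -0.63 and 0.034 for Camkk2. The log2 ratio differences there ran from -0.29 to 0.090 for the alpha genes and from -0.19 to 0.22 for the gamma genes. In Svil-Mut against WT the values were -0.011 and 0.19 for Prkab2, -0.14 and 0.00062 for Prkag1, and -0.29 and 0.15 for Sirt1. In Svil-KO against Svil-Mut they were -0.14 and 0.036 for Prkag1, -0.24 and 0.15 for Prkag2, -0.32 and 0.34 for Camkk2, and -0.037 and 0.40 for Sirt1.

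Same-numbered libraries of different genotype did not deviate together (r from -0.056 to 0.044 over 7 pairs), so the numbers were not taken as pairs. Between WT and Svil-KO alone, every library correlated best with its own number, at r of 0.026 to 0.044. This is a weak hint from the data and not from the design. With Svil-Mut included, WT replicate 3 correlated best with Svil-Mut replicate 4 (0.061) and Svil-KO replicate 1 with Svil-Mut replicate 2 (0.029). With the replicate number as a block, the sign turned for Sirt1 in Svil-Mut against WT (0.11) and, in Svil-KO against Svil-Mut, for Camkk2 (-0.22) and Sirt1 (-0.0011). Svil-Mut replicate 2 is the only library with that number, so the block takes it up and it adds nothing to the comparisons with Svil-Mut. What turned the signs was not tested. The block gave 7 genes in Svil-Mut against WT and 6 in Svil-KO against Svil-Mut over all genes, and none of the 10. For the beta ratio of Svil-Mut against WT, only the shared numbers 1 and 4 could be matched. The mean difference within these numbers was -0.23, beside -0.31 over all libraries of both genotypes. WT replicate 3 and Svil-Mut replicate 2 were not part of the matched value.

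Counts over all genes depended on the setting. Svil-Mut against WT had 6 genes by limma and by edgeR, 14 with only 2 genotypes in the fit, 16 with genes of mean 50 or more, 19 with a pseudocount of 10 and 172 by DESeq2. Leaving out 1 library gave 4 to 18. Svil-KO against Svil-Mut had 7 by limma, 212 by DESeq2 and 4 to 13 with 1 library left out. Svil-KO against WT had 0 by limma and edgeR and 4 by DESeq2. Camkk2 had the fewest reads of the 10 genes, 46 to 126 per library.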
